A study of Mus musculus with 27 samples.

Results

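Proteasome genes were followed across mouse hearts of 5 kinds. The members were all rows of the deposited count table whose symbol is Psma, Psmb, Psmc, Psmd, Psme, Psmf or Psmg followed by a number, which gave 47 of 57683 features. By role they were 8 alpha-ring subunits, 7 constitutive beta-ring subunits, 3 immunoproteasome beta subunits, 6 ATPases of the 19S base, 11 other 19S subunits, 7 assembly chaperones and 5 activators or inhibitors. Of the 47 members, 45 held counts and 43 passed the filter on low counts in each comparison. Psmd2, a scaffold of the 19S base, and Psmg3, an assembly chaperone, held no count in any library, and 0 and 6 of their exonic bases lay outside other features of the deposited annotation. Psma8, an alpha subunit best known from testis, and Psmg4, a chaperone of the alpha ring, held 0 to 20 and 0 to 22 counts per library and were too low to test.

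All hearts came from C57BL/6J mice, and the RNA was polyadenylated RNA read in single-end libraries that do not mark strand. The groups were 4 hearts after 4 weeks of transverse aortic constriction (TAC, a surgical pressure overload) and 4 sham-operated hearts, all at 12 weeks of age, 7 embryonic hearts at the E13.5 stage, 6 unoperated hearts at 16 weeks and 6 at 6 weeks. Embryonic hearts were taken whole, while adult samples were ventricular apexes. Embryos had no stated sex, 1 TAC mouse was labelled female and the other adults male. The labels give each library as a separate heart.

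Total counts were 10411417 to 11846819 in TAC, 7958592 to 11561952 in sham, 7543375 to 12646039 at E13.5, 2164604 to 2642307 at 16 weeks and 2092270 to 2682955 at 6 weeks. Base-quality encoding also separated the unoperated adults from the other groups. Y-linked counts went against the sex label in 8 libraries: TAC replicates 3 and 4, sham 2 and 3, 16-week 1 and 6 and 6-week 1 and 6. The cardiomyocyte markers were present in all groups, with summed levels of 16640 to 21760 CPM (counts relative to the TMM-scaled library size, TMM being the trimmed mean of M-values) at E13.5 against 106700 to 116600 at 6 weeks. The atrial markers summed to 1692 to 2475 CPM at E13.5 and 74.3 to 145.7 CPM at 6 weeks. RNA came from mixed tissue, so fewer cells of a type and less RNA per cell cannot be told apart.

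The 26S proteasome degrades proteins marked with ubiquitin. Its 20S core is a barrel of alpha and beta rings, and the proteolytic sites lie on the beta subunits encoded by Psmb5, Psmb6 and Psmb7. The 19S particle binds the core, recognises ubiquitin, removes it and unfolds the substrate with a ring of ATPases. In immune cells and under interferon, newly made cores carry Psmb8 in place of Psmb5, Psmb9 in place of Psmb6 and Psmb10 in place of Psmb7. Such immunoproteasomes cut peptides suited to display on class I molecules. In heart muscle the proteasome removes damaged and surplus contractile proteins.

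Upstream sequence is shown for the catalytic subunits that could be matched, because the comparison of immunoproteasome and constitutive subunits rests on them. RefSeq windows (build GRCm38.p6, which is not the mm9 build of the counts) matched 39 of the 47 members, and Psmb7 was not among them. Each line gives the 250 bases before the start on the gene's strand, 5′ to 3′, and the capitals mark matches on either strand to TTCNNNGAA (an element bound by STAT factors), TGACNNNGC (the antioxidant response core), CCAAT or GGAAG (the ETS core).
Psmb8, chr17:34197945-34198194, plus strand: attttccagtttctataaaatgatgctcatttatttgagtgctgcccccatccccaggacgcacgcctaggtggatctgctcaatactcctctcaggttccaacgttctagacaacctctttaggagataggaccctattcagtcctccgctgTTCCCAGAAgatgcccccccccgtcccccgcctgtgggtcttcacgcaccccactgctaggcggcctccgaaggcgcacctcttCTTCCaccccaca
Psmb9, chr17:34187331-34187580, minus strand: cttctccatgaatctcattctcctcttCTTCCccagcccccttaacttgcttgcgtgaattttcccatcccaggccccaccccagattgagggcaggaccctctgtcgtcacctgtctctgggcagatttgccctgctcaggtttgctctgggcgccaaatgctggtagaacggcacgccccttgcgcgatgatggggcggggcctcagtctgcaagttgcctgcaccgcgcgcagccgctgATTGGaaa
Psmb10, chr8:105938393-105938642, minus strand: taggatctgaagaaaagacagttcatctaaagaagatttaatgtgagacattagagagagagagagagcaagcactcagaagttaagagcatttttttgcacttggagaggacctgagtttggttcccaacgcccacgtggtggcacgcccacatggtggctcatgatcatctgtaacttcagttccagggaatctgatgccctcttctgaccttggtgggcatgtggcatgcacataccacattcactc
Psmb5, chr14:54617996-54618245, minus strand: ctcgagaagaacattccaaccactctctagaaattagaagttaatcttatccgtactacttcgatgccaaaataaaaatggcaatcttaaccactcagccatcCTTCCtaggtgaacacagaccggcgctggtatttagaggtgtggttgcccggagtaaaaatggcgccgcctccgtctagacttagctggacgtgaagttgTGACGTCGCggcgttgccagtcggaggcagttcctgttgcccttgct
Psmb6, chr11:70525107-70525356, plus strand: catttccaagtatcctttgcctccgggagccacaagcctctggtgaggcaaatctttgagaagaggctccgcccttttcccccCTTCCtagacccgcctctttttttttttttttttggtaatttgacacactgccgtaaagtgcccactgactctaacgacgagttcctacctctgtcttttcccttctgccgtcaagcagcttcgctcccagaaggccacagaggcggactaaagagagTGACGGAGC

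The TTCNNNGAA match of Psmb8 began 97 bases before the start, and 7.02% of 32851 windows of this length held one. The TGACNNNGC matches of Psmb5 and Psmb6 began 47 and 9 bases before the start, and 10.16% of windows held this motif. The CCAAT match of Psmb9 began 8 bases before the start, where 33.85% of windows held one, and GGAAG stood in 64.07% of windows. The core of the interferon-stimulated response element was in none of the 5 windows printed and in 2.98% of all windows. Psmb3, Psmd4 and Psmd9 held it among the 40 Psm genes with a window, which include the thymic Psmb11. No printed letters of Psmb10 matched any of the motifs. These matches describe the letters and are no evidence of binding.

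Levels per kilobase of exon that belongs to 1 feature alone differed over a wide range among members. In unoperated adult hearts Psme1 (a subunit of the PA28 activator) stood at 127.2 CPM per kb, Psmb2 at 121.5 and Psmb1 at 109.1, while Psma3 stood at 1.51 CPM per kb. Of the Psma3 transcript, 34.4% is matched in other genes, so its counts are uncertain. The immunoproteasome subunits lay below the subunits they replace. Psmb10 averaged 42.4 CPM per kb against 100.2 for Psmb7, Psmb8 14.0 against 29.1 for Psmb5, and Psmb9 3.85 against 61.3 for Psmb6. Psmb10 was thus the most abundant of the 3 immunoproteasome transcripts in these hearts. Its per-kb level in TAC hearts averaged 101.1 ± 10.4 CPM per kb and that of Psmb7 in the same hearts 91.9 ± 7.70 CPM per kb (SD, n = 4), a difference within the spread of these hearts. Levels per kb rest on the part of each gene that the authors' counting could use, which was 31.1% of Psmc2, 34.5% of Psmb3 and 35.0% of Psmg4.

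**Figure D1:**
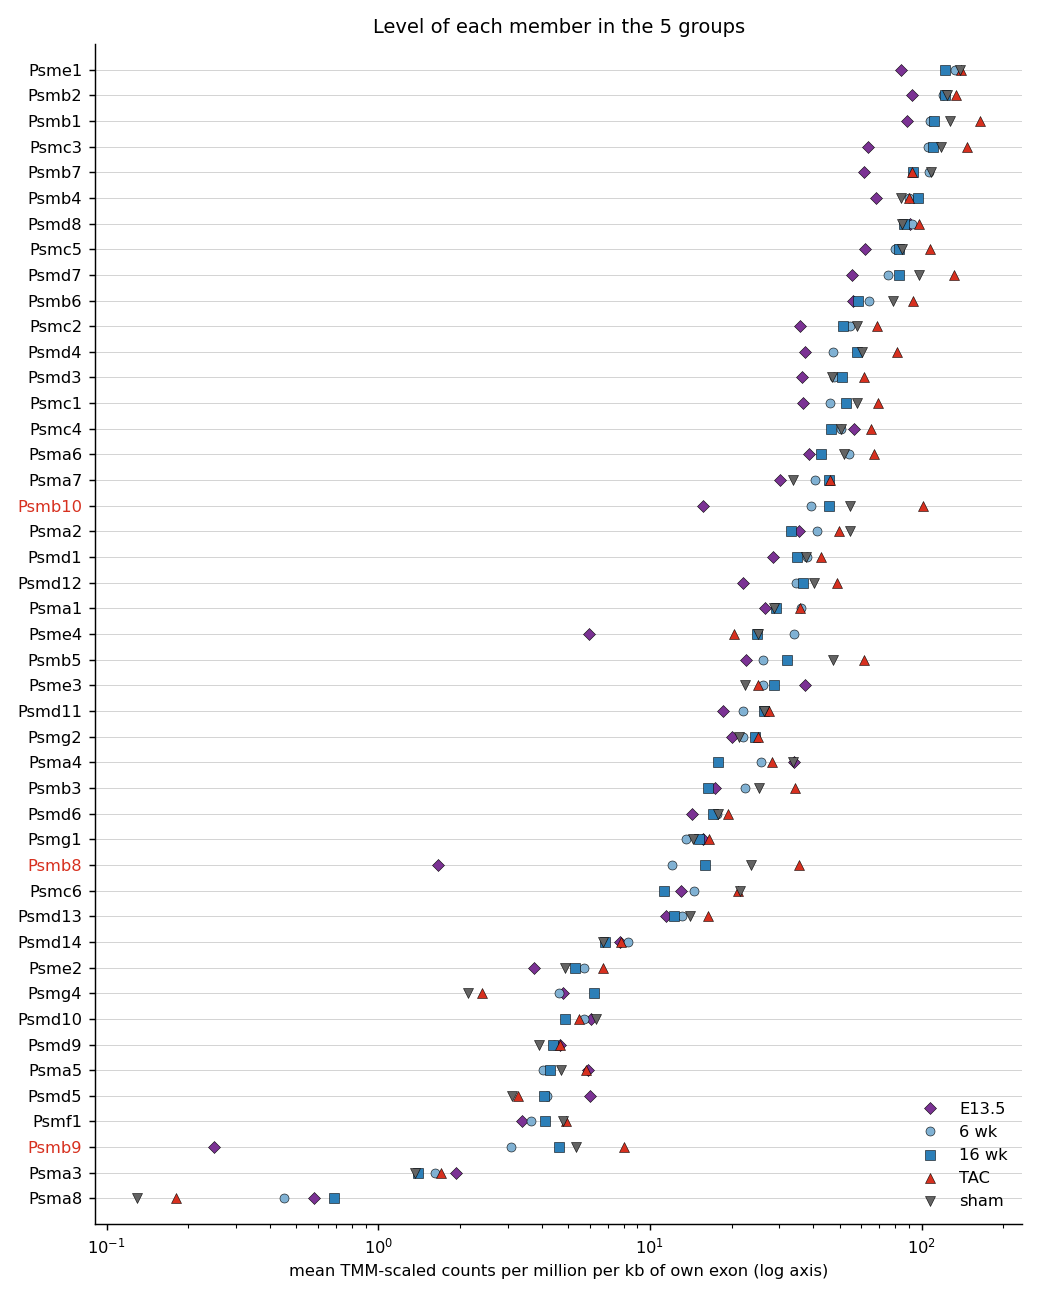
Mean level of each of the 45 members with counts in the 5 groups, in TMM-scaled CPM per kb of own exon (log axis), ordered by the mean of unoperated adults; each symbol is a group mean. Red names mark the immunoproteasome subunits: Psmb10 reaches 101.1 CPM per kb in TAC hearts, and Psmb8 and Psmb9 lie at 1.65 and 0.249 CPM per kb at E13.5.

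The first comparison asked what pressure overload did to these transcripts, by setting TAC hearts against sham hearts of the same age. In TAC hearts 18 of the 43 tested members were higher, 2 were lower and 23 were not called (edgeR quasi-likelihood test, Benjamini-Hochberg adjusted p under 0.05). Over all 14555 features tested, 19.6% were called higher and 18.4% lower. Calls in either direction took in 38.0% of all features. The groups did not overlap for 22 of the 43 members and for 35.7% of all features, and 25 members and 47.0% of all features passed an unadjusted edgeR p of 0.05. The median log2 fold change of the members was 0.21, beside 0.0005 over all features. The rise was small for most: apart from the immunoproteasome subunits, the largest called value was 0.42 on the log2 scale, a 1.34-fold level. Among the tested members with at least 90% of their exonic bases outside other features and at most 5% of their transcript matched in another gene, 11 of 25 were higher and 1 was lower. Sham replicates 2 and 3 and TAC replicates 3 and 4 were of doubtful sex. Leaving them out left 2 hearts a group. Then 17 were higher and 4 lower, beside 2659 higher and 2461 lower of 15037 features.

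Psmb10, on chromosome 8 (mm9, 108459642 to 108461987, minus strand), changed most. Its level was 103.1, 102.2, 81.7 and 97.6 CPM in the TAC libraries, against 50.5, 59.6, 46.2 and 51.0 CPM in the sham libraries. Every TAC heart stood above every sham heart. The fold was 1.80 (log2 0.85, SE 0.09, edgeR adjusted p 4.8e-06), and leaving out any 1 library gave log2 values of 0.81 to 0.92.

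Psmb8, on chromosome 17 (mm9, 34335313 to 34338399, plus strand), stood at 33.4, 43.1, 37.1 and 35.0 CPM in TAC hearts, against 27.7, 26.2, 22.7 and 22.3 CPM in sham hearts. No TAC heart overlapped the sham range, and the fold was 1.46 (log2 0.54, SE 0.10, edgeR adjusted p 0.00072). Psmb9, its neighbour on chromosome 17 (mm9, 34318933 to 34324318, minus strand), stood at 18.5, 21.3, 20.6 and 16.9 CPM in TAC hearts, against 12.2, 17.4, 10.6 and 11.5 CPM in sham hearts. Sham replicate 2 lay inside the TAC range, and the fold was 1.45 (log2 0.53, SE 0.15, edgeR adjusted p 0.0090). Both calls were lost when all 27 libraries shared 1 fit, with log2 values of 0.59 and 0.57 and edgeR adjusted p of 0.068 and 0.088. Of the Psmb8 and Psmb9 transcripts, 11.7% and 15.7% are matched in other genes, above the 5% limit used for members with few copies. Their counts are therefore less certain than those of Psmb10, which had no such match.

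The constitutive partners did not move as a set. Psmb5, the chymotrypsin-like subunit that Psmb8 replaces, stood at 63.0, 49.0, 61.4 and 53.1 CPM in TAC hearts, against 45.0, 44.0, 42.7 and 42.7 CPM in sham hearts, a rise of 0.34 on the log2 scale (SE 0.09, edgeR adjusted p 0.0058). Without the libraries against their sex label, which leaves 2 hearts a group, its value was 0.31 with an edgeR adjusted p of 0.056. Of its transcript, 88.4% has near-identical copies elsewhere, so its counts are uncertain. Psmb6, the caspase-like subunit, stood at 166.4, 192.7, 161.8 and 175.1 CPM in TAC hearts, against 161.0, 123.4, 155.3 and 146.3 CPM in sham hearts (log2 0.21, SE 0.08, edgeR adjusted p 0.061). Its groups lay side by side without overlap, and it was not called. Psmb7, the trypsin-like subunit that Psmb10 replaces, fell to 99.9, 100, 108.5 and 118.8 CPM in TAC hearts, against 119.1, 121.6, 132.5 and 132.2 CPM in sham hearts. The groups of Psmb7 did not overlap (log2 -0.28, SE 0.07, edgeR adjusted p 0.0066), so Psmb10 and Psmb7 were called in opposite directions. Psmb7 overlaps Nek6, which matches 35.1% of its transcript, so its counts are uncertain.

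**Figure D2:**
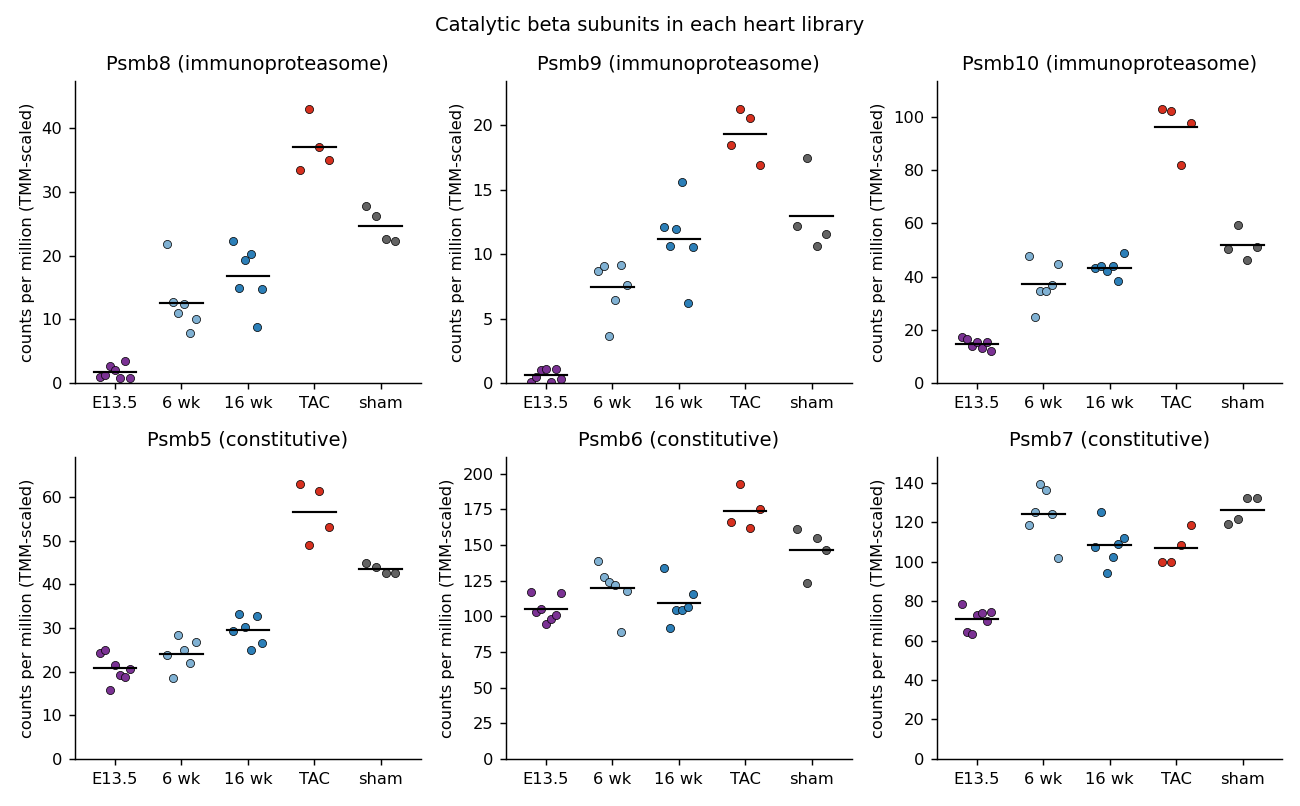
TMM-scaled CPM of the 3 immunoproteasome subunits (top) and the constitutive subunits they replace (bottom), 1 point per library and a bar at each group mean, for E13.5 (n = 7), 6 weeks (n = 6), 16 weeks (n = 6), TAC (n = 4) and sham (n = 4). Psmb10 runs from 81.7 to 103.1 CPM in TAC hearts and from 46.2 to 59.6 CPM in sham hearts, while Psmb7 is lower in TAC hearts.

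A ratio within a library needs no scaling between libraries, so each immunoproteasome subunit was also set against its partner as counts per kb in the same heart. Psmb10 was 126.1%, 124.8%, 92.1% and 100.4% of Psmb7 in TAC hearts, against 51.9%, 59.9%, 42.7% and 47.2% in sham hearts. The log2 ratio was 1.13 higher in TAC, a 2.20-fold difference, and the groups did not overlap. The two-sided exact permutation p was 0.0286, the smallest that 4 against 4 can give, and 0.0643 after adjustment over the 9 ratio tests, which misses the threshold. Psmb8 was 46.6% to 77.3% of Psmb5 in TAC hearts and 46.0% to 54.2% in sham hearts (log2 difference 0.21, exact p 0.257, adjusted 0.289). Psmb9 was 7.54% to 9.90% of Psmb6 in TAC hearts and 5.38% to 11.03% in sham hearts (log2 difference 0.34, exact p 0.229, adjusted 0.289). Both of these ratios overlapped between the groups. Set instead against the mean log2 level of the 7 constitutive beta subunits, the TAC differences were 0.70 for Psmb10, 0.39 for Psmb8 and 0.40 for Psmb9. None of these passed adjustment (exact permutation, adjusted p 0.0514, 0.0514 and 0.129), and the size of the Psmb10 difference depends on the partner.

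**Figure D3:**
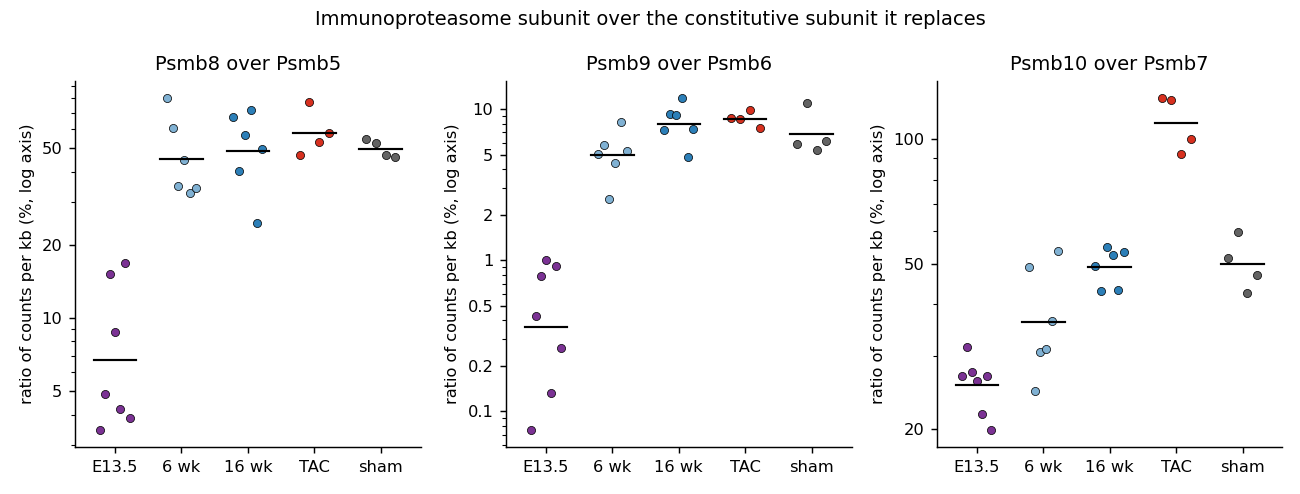
Ratio of each immunoproteasome subunit to the constitutive subunit it replaces, as counts per kb in the same library (percent, log axis), 1 point per library and a bar at the geometric mean, in the groups E13.5, 6 weeks, 16 weeks, TAC and sham. Psmb10 over Psmb7 is 92.1% to 126.1% in TAC hearts and 42.7% to 59.9% in sham hearts, and Psmb9 over Psmb6 stays at or under 0.996% at E13.5.

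As a share of the per-kb RNA of all 6 catalytic subunits, Psmb8, Psmb9 and Psmb10 together made up 34.5% to 39.4% in TAC hearts (mean 36.9% ± 2.12, SD, n = 4) and 23.5% to 30.3% in sham hearts (mean 26.3% ± 2.91, SD, n = 4). Macrophage markers moved the same way: 7 of 13 were called higher in TAC. Over all features, 19.6% were called higher in this comparison and 38.0% in either direction. The macrophage markers summed to 782.2 to 1119 CPM in TAC and 570.2 to 629.6 CPM in sham hearts, with no marker at 0 in either group. Lymphocyte markers summed to 16.9 to 21.0 CPM in TAC and 10.2 to 14.3 CPM in sham hearts, and 2 of the 4 tested were higher. Fibroblast markers were higher for 5 of 8, with sums of 2521 to 5048 CPM against 1230 to 1376 CPM in sham. The part of these cells in the immunoproteasome result was not tested.

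In the rest of the 20S core, 6 of 14 tested constitutive subunits were higher in TAC hearts and 1 (Psmb7) was lower. Over all features those shares were 19.6% and 18.4%. Psma7, an alpha-ring subunit, had the largest called rise among constitutive members, at 136.5, 168.7, 133.5 and 127.9 CPM in TAC hearts against 105.9, 101.9, 102.0 and 102.4 CPM in sham hearts (log2 0.42, SE 0.08, edgeR adjusted p 0.00088). TAC replicate 2 was the highest of its group, and every TAC heart stood above every sham heart. The other alpha subunits called were Psma1 and Psma6, with log2 values of 0.29 and 0.33. On the beta ring, Psmb1 and Psmb3 rose by 0.33 and 0.40, and Psmb2 and Psmb4 had values of 0.06 and 0.06 that were not called. Of the Psmb3 transcript, 80.7% is matched in other genes, so its counts are uncertain. Psma4 had a value of -0.31 that was not called, with an edgeR adjusted p of 0.062.

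The 19S particle gave the most calls: 9 of 16 tested subunits were higher in TAC hearts and none of the 16 was lower. Over all features, 19.6% were higher and 18.4% lower. Of the 16 subunits, 11 passed an unadjusted edgeR p of 0.05, beside 47.0% of all features. Their median log2 fold change was 0.21. Among the ATPases, Psmc1, Psmc3, Psmc4 and Psmc5 were higher by 0.22, 0.29, 0.32 and 0.30 on the log2 scale. Of the Psmc1 and Psmc3 transcripts, 82.0% and 11.9% are matched in other genes, so their counts are uncertain. Psmd4 and Psmd7 are given in full, a choice made after their values were seen. Psmd4, a ubiquitin receptor, stood at 221.9, 245.5, 205.5 and 206.2 CPM in TAC hearts, against 168.4, 161.8, 162.8 and 157.5 CPM in sham hearts (log2 0.39, SE 0.07, edgeR adjusted p 0.00040). Psmd7, the partner of the deubiquitinase in the lid, stood at 208.3, 229.6, 200 and 203.9 CPM in TAC hearts and 156.3, 162.5, 151.4 and 154.5 CPM in sham hearts (log2 0.39, SE 0.06, edgeR adjusted p 0.00026). These groups did not overlap for either gene. The deubiquitinase itself, Psmd14, had a value of 0.18 that was not called. Summed over the particle, the level was 2154 to 2382 CPM in TAC and 1791 to 1820 CPM in sham hearts.

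None of the 5 tested assembly chaperones was called, and none passed an unadjusted edgeR p of 0.05, with values from -0.25 (Psmd10) to 0.21 (Psmd9). Calls in either direction took in 38.0% of all features, and 47.0% passed that unadjusted p. With 5 genes, the count is no result about the chaperones. The PA28 alpha and beta subunits Psme1 and Psme2, which open the core and are induced by interferon, had log2 values of -0.02 and 0.42 that were not called (edgeR adjusted p 0.83 and 0.057). Psme1 stood at 136.5, 143.0, 132.8 and 144.8 CPM in TAC hearts and 135.7, 138.8, 136.5 and 137.6 CPM in sham hearts. CPM use 1 set of scaling factors over all 27 libraries and folds those of the libraries compared, so small differences can take opposite signs on the 2 scales. Psme2 stood at 10.1, 16.4, 10.1 and 10.9 CPM in TAC hearts and 8.73, 8.72, 7.55 and 9.38 CPM in sham hearts. The groups did not overlap, and 82.5% of its transcript is matched by the copy Psme2b, so its counts are uncertain. Psme3, the nuclear PA28 gamma, stood at 76.5, 71.7, 66.5 and 79.5 CPM in TAC hearts and 65.5, 67.6, 62.9 and 68.2 CPM in sham hearts, with a log2 value of 0.11 that was not called.

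Psme4, on chromosome 11 (mm9, 30671726 to 30780361, plus strand), encodes PA200, a nuclear activator that caps the core in place of the 19S particle. Its level was 159.2, 136.9, 169.7 and 176.6 CPM in TAC hearts, against 206.4, 183.0, 180.4 and 216.6 CPM in sham hearts. The groups did not overlap, and the log2 fold change was -0.33 (SE 0.08, edgeR adjusted p 0.0054). The value was -0.56 without the libraries against their sex label, and in the fit of all 27 libraries it was -0.29 and no longer called (edgeR adjusted p 0.198).

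**Figure D4:**
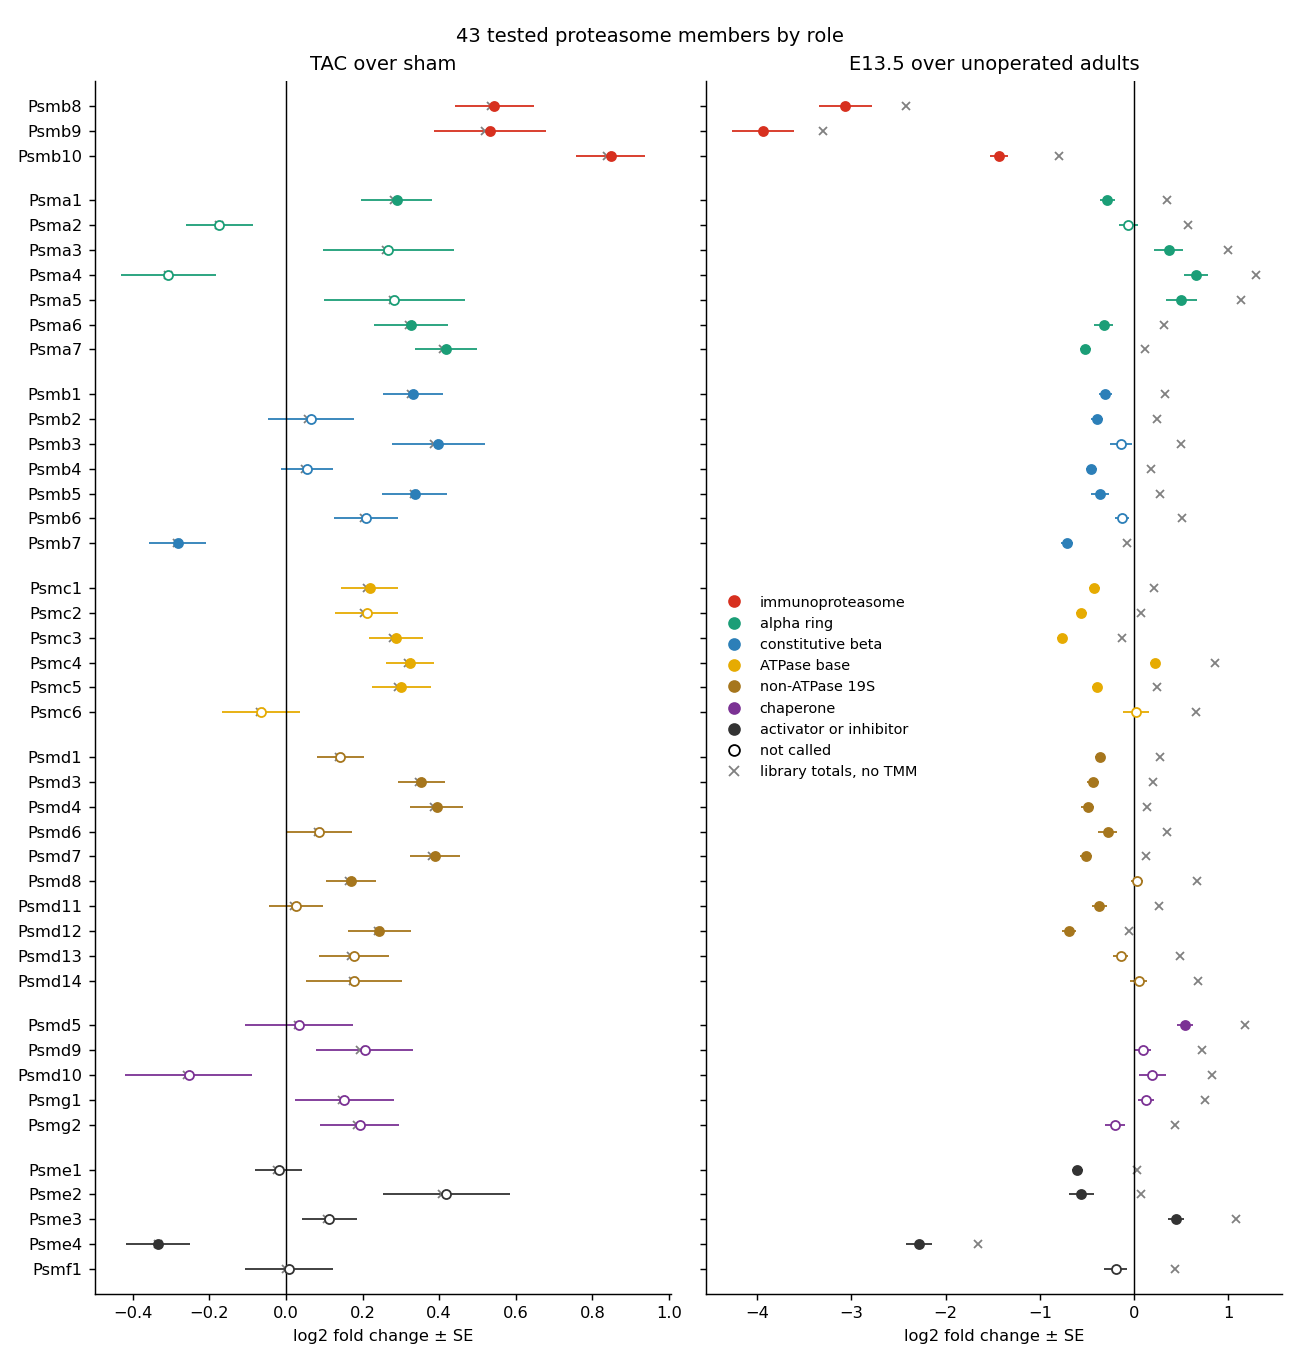
Log2 fold change with its SE (edgeR) of the 43 tested members in TAC over sham (left) and in E13.5 over unoperated adults (right), by role; filled points are called at an adjusted p under 0.05, open points are not, and grey crosses give the value with library totals in place of TMM factors. On the left the crosses lie on the points. On the right they lie to the right of them, so that most constitutive members change side. Psmb8, Psmb9, Psmb10, Psme4 and Psmc3 stay on the lower side and called. Psmb7 and Psmd12 stay just below the line (-0.07 and -0.06) and are not called with library totals.

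Genes that work with the proteasome were counted beside the members. Of the genes that encode ubiquitin, Rps27a and Ubb were higher in TAC hearts, with log2 values of 1.24 and 0.52. Rps27a has many processed copies, so its counts are uncertain. Of 8 partners outside the symbol rule, Uchl5 (a deubiquitinase of the 19S) and Shfm1 (the smallest 19S subunit, Sem1) were higher by 0.60 and 0.28. Of the transcription factors of proteasome genes, Nfe2l2 (NRF2) was lower by -0.37 and Nfe2l1 (NRF1), which drives proteasome genes when the proteasome is impaired, had a value of 0.05 that was not called. Ubqln4, a shuttle factor that brings ubiquitinated proteins to the proteasome, was higher by 0.17. Of 12 ubiquitin ligases of muscle, 3 were higher, among them Trim54 (0.54) and Asb2 (0.41), and 3 were lower, among them Cul3 (-0.45) and Cblb (-0.34). Over all features 19.6% were higher and 18.4% lower, so the ligase counts are no result about that list.

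Class I antigen processing and interferon genes are the usual companions of the immunoproteasome. Their calls in TAC, 3 of 7 and 5 of 16, stood beside 38.0% of all features called in either direction, so the counts are no result about these lists. Of 7 tested class I genes, H2-K1 and Tap2 were higher, by 0.60 and 0.37 on the log2 scale, and Erap1 was lower by -0.53. Of 16 interferon-response genes, 4 were higher and 1 was lower. Isg15, Irf7 and Bst2 were higher by 0.93, 0.85 and 0.69, and Xaf1 was lower by -0.37. The median over the interferon list was 0.13. Irf1, a factor that acts on the immunoproteasome genes and was looked up after the other values were seen, had a log2 value of 0.10 that was not called.

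The second comparison set E13.5 hearts against unoperated adult hearts of both ages. Of the 43 members, 25 were lower at E13.5, 6 were higher and 12 were not called. Over the 12766 features tested, 39.7% were called lower, 44.1% higher and 83.8% in either direction. The groups did not overlap for 16 members and for 54.5% of all features, and 31 members and 84.3% of all features passed an unadjusted edgeR p of 0.05. The median log2 fold change was -0.33 for the members and 0.07 over all features. These directions depend on scaling. TMM factors were 1.36 to 1.46 in the embryonic and 0.87 to 0.96 in the unoperated adult libraries, and with library totals alone 32 members were higher and 5 lower, beside 8282 higher and 2975 lower of all 12766 features, while the median over all features moved to 0.71. The 5 that were lower under both scalings were Psmb8, Psmb9, Psmb10, Psmc3 and Psme4. Against the sham hearts, which share depth and quality encoding with the embryos, 31 members were lower and 5 higher of 45 tested, beside 6657 lower and 7597 higher of 18677 features.

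Psmb9 had the largest difference. Its level was 0.0564 to 1.13 CPM at E13.5 (median 0.489, from 1 to 17 counts per library), against 3.66 to 15.6 CPM in unoperated adults (median 9.12). Psmb8 ranged from 0.842 to 3.53 CPM at E13.5 (median 1.304), against 7.88 to 22.3 CPM in adults (median 13.7). Psmb10 ranged from 12.0 to 17.3 CPM at E13.5 (median 15.3), against 25.0 to 49.0 CPM in adults (median 42.7). For none of these 3 genes did embryonic and adult hearts overlap.

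The log2 fold changes were -3.94 for Psmb9 (SE 0.33, edgeR adjusted p 3.4e-11), -3.06 for Psmb8 (SE 0.29, edgeR adjusted p 1.1e-09) and -1.43 for Psmb10 (SE 0.10, edgeR adjusted p 3.8e-14). With library totals the values were -3.30, -2.42 and -0.80, each still called. Against sham hearts they were -4.55, -3.93 and -1.90. With the embryonic libraries thinned to the adult depth they were -3.47, -2.91 and -1.49.

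Ratios within a library showed the same order. Psmb9 was 0.075% to 0.996% of Psmb6 at E13.5, against 2.56% to 11.9% in unoperated adults (log2 difference -4.12). Psmb8 was 3.45% to 16.8% of Psmb5 at E13.5, against 24.6% to 80.6% in adults (log2 difference -2.81). Each gave a two-sided exact permutation p of 1.98e-05, the smallest that 7 against 12 can give, and 8.93e-05 after adjustment over the 9 ratio tests. Psmb10 was 19.9% to 31.6% of Psmb7 at E13.5, against 24.7% to 55.0% in adults, with some overlap (log2 difference -0.73, exact permutation p 0.000635, adjusted 0.00191). The 3 immunoproteasome subunits made up 8.40% to 12.9% of the catalytic per-kb RNA at E13.5 (mean 11.2% ± 1.63, SD, n = 7), against 26.5% ± 2.83 at 16 weeks and 21.5% ± 3.75 at 6 weeks (SD, n = 6 each).

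Macrophage markers and interferon genes were set beside these values. Over all features, 39.7% were called lower at E13.5, 44.1% higher and 83.8% in either direction. All 11 tested macrophage markers were lower at E13.5 with TMM factors, with sums of 160.1 to 213.6 CPM against 389.0 to 478.4 CPM at 16 weeks and 380.5 to 558.4 CPM at 6 weeks, and none was at 0 throughout the embryonic group. Lymphocyte markers summed to 1.71 to 8.89 CPM at E13.5, 2.11 to 12.9 CPM at 16 weeks and 4.15 to 11.5 CPM at 6 weeks, with Cd3d and Cd3g at 0 at 16 weeks and Cd8a at 0 at 6 weeks. These lymphocyte ranges overlapped, and the 1 marker tested was not called. Of 13 tested interferon-response genes, 11 were lower and 2 were not called, among them Iigp1 (-2.75), Gbp2 (-2.57), Gbp3 (-2.09) and Igtp (-1.97). Of 7 tested class I genes 5 were lower, with Tap2 at -4.28, H2-K1 at -2.61 and Tapbp at -1.71, and 2 were higher, among them the chaperone Pdia3 at 1.59. The part of cell makeup in these differences was not tested.

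Psme4 was the constitutive member that differed most. It ranged from 39.6 to 53.3 CPM at E13.5 (median 47.9), against 163.2 to 368.9 CPM in unoperated adults (median 216.4). The groups were far apart (log2 -2.29, SE 0.14, edgeR adjusted p 2.4e-12), and the value was -1.65 with library totals and -2.16 against sham hearts. Psme3 went the other way, at 92.7 to 142.5 CPM at E13.5 (median 105.6) and 61.8 to 93.5 CPM in adults (median 80.1), with a slight overlap. Its log2 fold change was 0.44 (SE 0.08, edgeR adjusted p 1.1e-05) and it was higher under both scalings. Thus the 2 nuclear activators were called in opposite directions. Psme1 and Psme2 were lower, by -0.60 and -0.56, with TMM factors, but had values of 0.03 and 0.07 with library totals that were not called.

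Among the core subunits, Psma4, Psma5 and Psma3 were higher at E13.5 by 0.66, 0.50 and 0.36 on the log2 scale, also with library totals. Psma4 stood at 31.1 to 42.6 CPM at E13.5 and 12.3 to 34.0 CPM in unoperated adults. Against sham hearts, Psma4 had a value of -0.09 and Psma5 one of 0.25, neither called. Both transcripts are largely matched by copies elsewhere (76.7% and 81.4%), so their counts are uncertain. Psma3 is matched in other genes over 34.4% of its transcript, so its counts are uncertain too. The 5 constitutive beta subunits that were lower with TMM factors (Psmb1, Psmb2, Psmb4, Psmb5 and Psmb7) had values from -0.31 to -0.71. With library totals Psmb5 had a value of 0.27 and Psmb6 one of 0.51, both called higher, and Psmb7 one of -0.07 that was not called.

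In the 19S particle 11 of 16 tested subunits were lower at E13.5 with TMM factors and 1, the ATPase Psmc4, was higher (0.22). Over all features those shares were 39.7% and 44.1%. Psmc3, another ATPase, singled out after its values were seen, was the lowest, at 140.6 to 168.5 CPM at E13.5 against 240.8 to 296.3 CPM in unoperated adults (log2 -0.76, SE 0.05, edgeR adjusted p 5.7e-14), and it was the single 19S subunit also lower with library totals. Another gene matches 11.9% of the Psmc3 transcript, so its counts are uncertain. Among the chaperones, Psmd5, which holds ATPases during base assembly, ranged from 19.2 to 22.5 CPM at E13.5 and 10.6 to 16.6 CPM in adults, with no overlap. Psmd5 was higher by 0.54 (SE 0.09, edgeR adjusted p 1.7e-06) and under both scalings. The other 4 tested chaperones were not called with TMM factors.

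The values of companion genes that follow use TMM factors, and those smaller than the shift of the all-feature median, to 0.71 from library totals against 0.07, depend on that scaling. Nfe2l1 averaged 268.3 ± 15.8 CPM at E13.5 and 1172 ± 125.9 CPM in unoperated adults (SD, n = 7 and 12), a log2 fold change of -2.12. Nfe2l2 and Ngly1, the enzyme that activates NRF1, had values of -0.49 and -1.12, both called lower. Pomp, the maturation factor of new cores, had a value of -0.66 and Ubb one of 0.63, both called. Of 12 muscle ubiquitin ligases 8 were lower and 4 higher, beside 39.7% and 44.1% of all features. The largest differences were Trim54 (-5.06), Fbxo40 (-3.85), Fbxo32 (-2.08) and Trim63 (-2.04), the last 2 known as markers of muscle wasting.

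The third comparison, 16-week against 6-week hearts, called no member in either direction (edgeR 0 of 43, DESeq2 0 of 43), while 1.32% of 10394 features were called higher, 1.19% lower and 2.51% in either direction. At an unadjusted edgeR p under 0.05 there were 13 members and 16.9% of all features. The groups did not overlap for 1 member, Psmd4 (log2 0.28, edgeR adjusted p 0.087), and for 2.05% of all features. Depth was lowest in these groups. Psmb9 stood at 6.18 to 15.6 CPM at 16 weeks (median 11.3) and 3.66 to 9.13 CPM at 6 weeks (median 8.16), with a log2 fold change of 0.54 (SE 0.23, edgeR adjusted p 0.228). Psmb8 and Psmb10 had values of 0.37 and 0.21, and Psme4 one of -0.47, none of them called.

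The ratios pointed the same way without passing adjustment. Psmb9 was 4.81% to 11.9% of Psmb6 at 16 weeks and 2.56% to 8.26% at 6 weeks (log2 difference 0.70, exact permutation p 0.0368, adjusted 0.0662). Psmb10 was 43.1% to 55.0% of Psmb7 at 16 weeks and 24.7% to 53.8% at 6 weeks (log2 difference 0.44, exact permutation p 0.0455, adjusted 0.0682). Psmb8 over Psmb5 had a log2 difference of 0.11 (exact permutation p 0.736). Nfe2l1 was the called gene on the list of proteasome transcription factors, at 1281 ± 65.9 CPM at 16 weeks and 1062 ± 39.2 CPM at 6 weeks (SD, n = 6 each, log2 0.26, edgeR adjusted p 0.0207).

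The TAC and E13.5 comparisons share no library, so their calls can be set side by side. Of the 18 members higher in TAC hearts, 15 were lower at E13.5, 1 was higher (Psmc4) and 2 were not called. Lower calls at E13.5 took in 25 of all 43 tested members and 39.7% of all features. How many of all features higher in TAC were lower at E13.5 was not counted. Psme4 and Psmb7, the members lower in TAC hearts, were lower at E13.5 too. With library totals the E13.5 direction of most constitutive members turns, so this count of 15 holds for TMM scaling only; the opposite directions of Psmb8, Psmb9, Psmb10 and Psmc3 and the shared lower direction of Psme4 hold under both scalings.

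**Figure D5:**
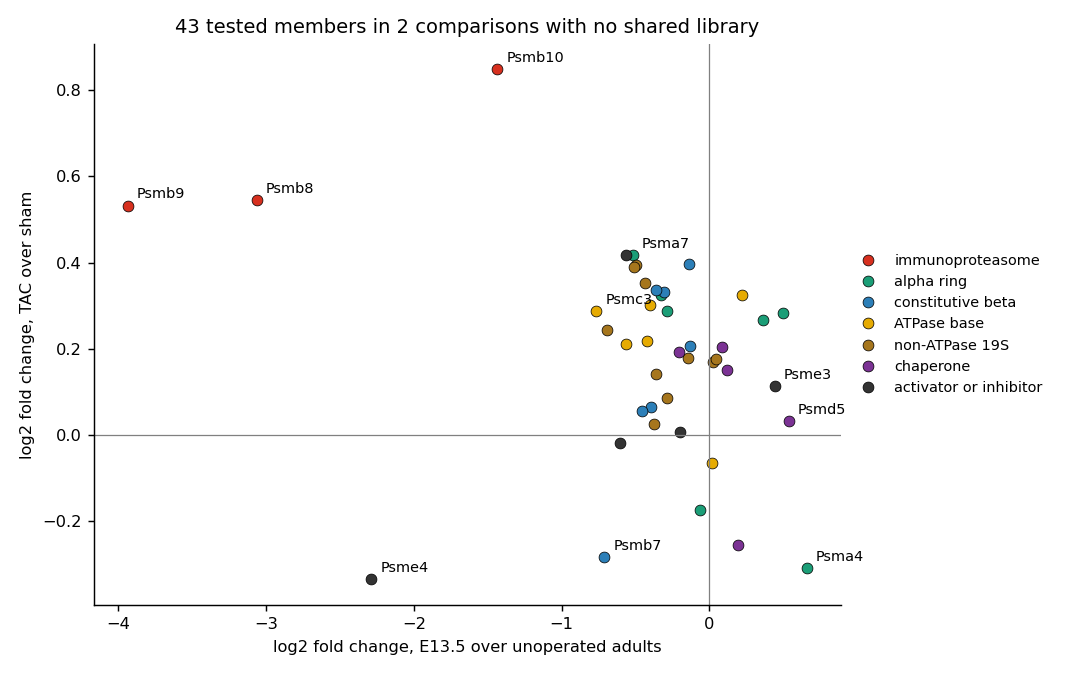
Log2 fold change of the 43 tested members in TAC over sham (vertical axis) against that in E13.5 over unoperated adults (horizontal axis), 1 point per member coloured by role, with TMM factors. The immunoproteasome subunits lie at the upper left (Psmb9 at -3.94 and 0.53), Psme4 at the lower left (-2.29 and -0.33), and most constitutive members in a cloud between -0.76 and 0.66 on the horizontal axis.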

How the data were processed

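Poly(A) RNA of 27 mouse hearts was sequenced. The authors deposited whole-number counts per feature. Per the submitters' processing notes, Bowtie, TopHat 1.3.0 and HTSeq were used on build mm9, and DESeq and edgeR are named without a role. The counting mode is not given in the sources used here. Counts were tested in R 4.3.3 with edgeR 4.0.16 (quasi-likelihood test, TMM factors, filterByExpr with a minimum of 10 and a total of 15) over all features of the groups compared, with Benjamini-Hochberg adjustment, and called at 0.05. DESeq2 1.42.0 and limma 3.58.1 were alternatives. The steps were first tested on simulated data. Ratios used counts plus 1 per kb of exon in no other feature, with two-sided exact permutation tests adjusted over 9 tests. Copies were matched with BLAST+ 2.17.0 (95% identity over 50 bases) to GENCODE transcripts, and promoters came from RefSeq GRCm38.p6. The members and lists were chosen with earlier results of these data known. Named in full were the catalytic subunits, Psme1 to Psme4 and, per comparison, the 4 called members with the largest change in each direction; of other lists, up to 4 called genes. Psmd4, Psmd7, Psmc3 and Irf1, and other genes outside this rule, were named after their values were seen. Psmb11 counts were not analysed here. Replicate numbers did not pair the samples, with correlations of same-numbered deviations all under 0.1. Results of some genes on the lists are not reported here.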

Additional observations from a re-analysis of the deposited data

Results flagged for a closer look

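Of 90 groups of library values checked, 5 held a library far from the others of its group, and about 1 in 20 groups would do so by chance. Psme2 stood at 16.39 CPM in TAC replicate 2 and at 10.07 to 10.88 CPM in the other TAC hearts. Psma7 stood at 105.9 CPM in sham replicate 1 and at 101.9 to 102.4 CPM in the other sham hearts. Psmb9 was 11.03% of Psmb6 per kb in sham replicate 2 and 5.382% to 6.159% in the other sham hearts. Psme2 stood at 8.352 CPM in E13.5 replicate 4 and at 5.664 to 6.763 CPM in the other embryonic hearts. For Psmb8, 6-week replicate 1 held 21.8 CPM, while the other 6-week hearts held 7.884 to 12.67 CPM. Sham replicate 2 and 6-week replicate 1 are among the libraries whose Y-linked counts went against their sex label.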

How the results depend on the processing

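Members higher in TAC numbered 11 of 25 and members lower 1 when only those with little overlap or copies were counted, a choice made after seeing the data. The shares of all features were 19.6% and 18.4%. Members lower in TAC numbered 1 of 45 with all 27 libraries in 1 fit and 4 of 43 without the libraries against their sex label. Those settings called 2269 of 18754 and 2461 of 15037 features lower. At E13.5, members higher numbered 10 of 43 with upper-quartile scaling, 32 of 43 with library totals and 10 of 45 with no filter. All features higher under these settings numbered 6159 of 12766, 8282 of 12766 and 12197 of 40024. Members lower numbered 5 with library totals, beside 2975 of 12766 features. Among members with little overlap or copies, 3 of 25 were higher and 15 of 25 lower, beside 44.1% and 39.7% of all features. Library totals turned the E13.5 values of Psmb5 to 0.27, Psmb6 to 0.51, Psme1 to 0.031 and Psme2 to 0.074, and sham hearts as the reference turned Psma4 to -0.090. Between 16 and 6 weeks, 1 of 45 members was higher with all 27 libraries in 1 fit, beside 230 of 18754 features. With no filter, 3 of 45 were lower, beside 289 of 32331 features. Fits without 1 library gave 0 to 1 members lower, beside 56 to 165 features. Leaving out 1 library gave 14 to 21 members higher and 2 to 3 lower in TAC, and 5 to 6 higher and 25 to 27 lower at E13.5. In these fits, 2368 to 2840 features were higher and 2153 to 2729 lower in TAC. At E13.5, 5457 to 5766 features were higher and 4941 to 5118 lower. Of the 18 members higher in TAC, 13 stayed called in every such fit and 10 in all 11 other settings. Psma1, Psmc1, Psmd8 and Psmd12 were lost in both kinds of setting, and Psma6, Psmb5, Psmb8 and Psmb9 among the other settings alone. The 16-week ratios ranged over 0.51 to 0.85 for Psmb9 to Psmb6, which passed without 6-week replicate 5 or 16-week replicate 5, and 0.33 to 0.55 for Psmb10 to Psmb7, which passed without 6-week replicate 1 or 6. Replicate numbers do not pair the samples. With the replicate block TAC gave 13 members higher and 3 lower, beside 1962 and 1767 of 14628 features. The block gave E13.5 ratios of -2.67, -4.04 and -0.67, with fewer libraries (exact sign-flip test of same-numbered differences, adjusted p 0.0938 each). Each unadjusted p was the smallest that this test can give, so missing the threshold here decides nothing. The causes were not tested. Few counts stand behind Psmb9, with 1 to 17 counts a library at E13.5 and 8 to 33 in the shallower unoperated adults.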
